A study of Sus scrofa with 599 samples.

Results

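The genes described here are 10 genes of the vascular endothelium and of VEGF signalling, namely PECAM1, CDH5, CLDN5, VWF, KDR, FLT1, TEK, TIE1, VEGFA and VEGFB. They were taken by symbol from the deposited tables of protein-coding genes (PCGs), which hold 21280 genes. A row was found for 8 of the 10, and the expression of VWF and VEGFB was not analysed here, although their positions in the genome were used for the chromatin data. RNA-seq, in situ Hi-C and H3K27ac ChIP-seq had been made from 4 adipose depots of female Bama pigs, a Chinese miniature breed. Fat of the greater omentum (GOM), fat of the mesentery (MAD) and retroperitoneal fat (RAD) are visceral depots, and the upper layer of backfat (ULB) is subcutaneous. All pigs were 2 years old when the study began. Pigs of the NC group stayed on a normal diet, WG pigs received high-fat feed over 22 weeks, and WL pigs, after the same feeding, then spent 12 weeks on 10% of a normal ration. WL pigs were sampled 12 weeks later in the trial than WG pigs, so time and restriction cannot be told apart between them. The RNA-seq libraries comprised 9, 12, 12 and 5 NC libraries, 45, 36, 39 and 38 WG libraries, and 10 WL libraries in each depot, in the order GOM, MAD, RAD and ULB. Estimated counts on PCGs ran from 3337098 to 22939420 per library, with a median of 16791659, and the lowest count of any of the 8 genes in any library was 87.0, for TEK.

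Endothelial cells line every blood vessel and are held together by junction proteins. PECAM1 is an adhesion molecule of these junctions, CDH5 (VE-cadherin) joins neighbouring cells, and CLDN5 is a tight-junction protein that limits leakage. KDR is the main signalling receptor for VEGFA, the growth factor that drives vessel growth and is induced by hypoxia, and FLT1 is a second receptor that binds VEGFA and VEGFB and acts in part as a decoy. TEK (TIE2) is the receptor for the angiopoietins, which steady mature vessels, TIE1 is its orphan relative, and VWF is the glycoprotein that captures platelets. In adipose tissue, capillaries lie beside the fat cells, which are themselves a source of VEGFA. In a bulk sample, fewer endothelial cells and less RNA per endothelial cell cannot be told apart.

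In the Sscrofa11.1 genome, PECAM1 lies on chromosome 12 (14667643-14723296, plus strand), CDH5 on chromosome 6 (27108560-27142145, plus) and CLDN5 on chromosome 14 (51161490-51162382, minus). VWF lies on chromosome 5 (64516627-64655938, plus). Among the receptors, KDR is on chromosome 8 (41809116-41856379, minus), FLT1 on chromosome 11 (5620698-5797095, minus), TEK on chromosome 1 (195938177-196052294, minus) and TIE1 on chromosome 6 (167919662-167947253, minus). VEGFA is on chromosome 7 (38746393-38762282, plus) and VEGFB on chromosome 2 (7872873-7876149, minus).

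All 7 endothelial genes with a row were expressed in each library, in TPM (transcripts of a gene as a share of all transcripts in the library, scaled by transcript length, so that levels can be compared between genes). PECAM1 was the most abundant, with a median of 442 TPM over all libraries and a range of 155 to 791. The medians of TEK, CDH5 and CLDN5 were 74.1, 65.0 and 61.1 TPM, and those of KDR, TIE1 and FLT1 were 46.3, 26.4 and 21.6 TPM. VEGFA had a median of 61.6 TPM and a range of 26.1 to 309.6. The group means spanned 1.48-fold for CDH5, from 53.1 TPM in WL ULB to 78.5 TPM in WG RAD, and 1.74-fold for PECAM1, from 318 TPM in NC GOM to 554 TPM in WL RAD. They spanned 5.94-fold for CLDN5, from 17.8 TPM in NC GOM to 106 TPM in WL ULB. TEK and TIE1 spanned 2.84-fold and 2.67-fold, with the highest mean of both in WL MAD (104 and 39.8 TPM). NC GOM held the lowest group mean of 4 genes, namely PECAM1, CLDN5, KDR and TIE1. When the 12 groups were put in order for each gene, 0 of the 11 steps between neighbouring groups was larger than the larger SD of the pair, for any of the 8 genes.

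**Figure D1:**
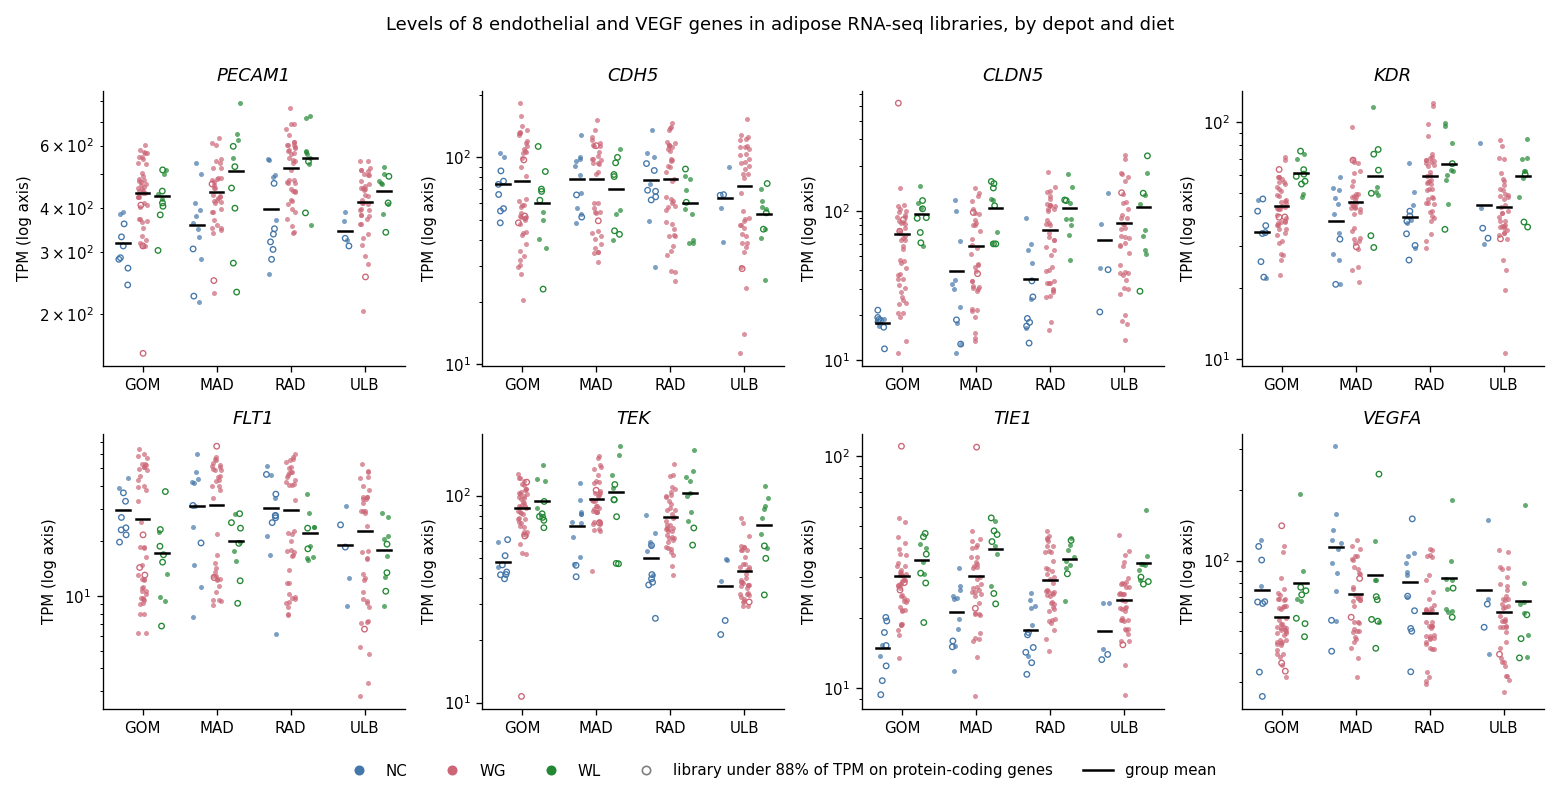
Level of each of the 8 genes in TPM (log axis) in all RNA-seq libraries, by depot along the x axis and by diet group in colour. Points are libraries, open points are libraries with under 88% of their TPM on PCGs, and lines are group means. CLDN5 runs from 11 to 525 TPM and TEK is lowest in NC ULB and WG ULB, while PECAM1 stays between 155 and 791 TPM.

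Some libraries stood apart, unevenly between the diet groups. In 40 libraries under 88% of the TPM was on PCGs, and these made up 17 of 38 NC, 6 of 158 WG and 17 of 40 WL libraries, with 7 of the 9 NC GOM libraries among them. Libraries also differed in the balance between long and short transcripts. For each library, the median log2(TPM + 1) of 2440 genes with an mRNA under 2000 bases was subtracted from that of 3271 genes with an mRNA over 5000 bases, leaving out the genes described here. This long minus short mRNA index was introduced after the data were seen. It ran from -1.19 to 0.09. Its values nearest to -0.5 were -0.52 and -0.50, so no gap separated the libraries there. Below -0.5, a value chosen after the distribution was seen, lay 114 libraries. These were 8 of 38 NC, 78 of 158 WG and 28 of 40 WL libraries, and 0 of the 9 NC GOM libraries.

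Levels of 3 of the 8 genes differed most between the 2 sets of libraries. The mean of FLT1 was 13 ± 5.22 TPM (SD, n = 114) below -0.5 and 38.7 ± 12.7 TPM (SD, n = 122) above it. CDH5 had means of 48.0 ± 16.2 and 98.1 ± 27.5 TPM, and CLDN5 went the other way, with 99.3 ± 40.4 and 44.2 ± 52.1 TPM. The remaining genes differed less, with means of 48.3 and 49.6 TPM for KDR, 27.7 and 29 TPM for TIE1, 434 and 454 TPM for PECAM1, 65.2 and 72.9 TPM for VEGFA, and 85.9 and 66.4 TPM for TEK. The 2 sets hold unequal shares of the diet groups, so these means mix the index with diet. After group means were removed, r with the index over all libraries was 0.91 for FLT1, 0.85 for CDH5 and -0.71 for CLDN5. It lay between -0.25 and 0.34 for the other 5 genes. Within each set, where the index spans a narrower range, r was 0.66 and 0.52 for FLT1, 0.53 and 0.46 for CDH5, and -0.24 and -0.45 for CLDN5, and between -0.17 and 0.45 for the other 5 genes. These are descriptions over libraries that also share depth and, in part, animals. The RefSeq mRNA of CLDN5 is 893 bases long, those of CDH5 and FLT1 are 3881 and 6740 bases, and those of KDR, TEK and TIE1, which differed less, are 6062, 6187 and 10371 bases. In addition, replicate 35 of WG GOM, the library with the lowest count, held the highest CLDN5 (525 TPM) and TIE1 (110.0 TPM) and the lowest TEK (10.7 TPM) and PECAM1 (155 TPM) of its group, and replicate 6 of WG MAD held 109 TPM of TIE1. Without either of these libraries the numbers of calls given below for NC to WG, WG to WL and between depots were the same. What set the index was not tested, and the expression calls of the 8 genes below are given with and without a term for it. The index ran from -0.40 to 0.07 in NC GOM, from -0.75 to -0.22 in WL GOM and from -0.85 to -0.32 in NC ULB. Where the groups compared differ in the index, the term takes up part of the group difference, so a call lost with it cannot be assigned to either.

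**Figure D2:**
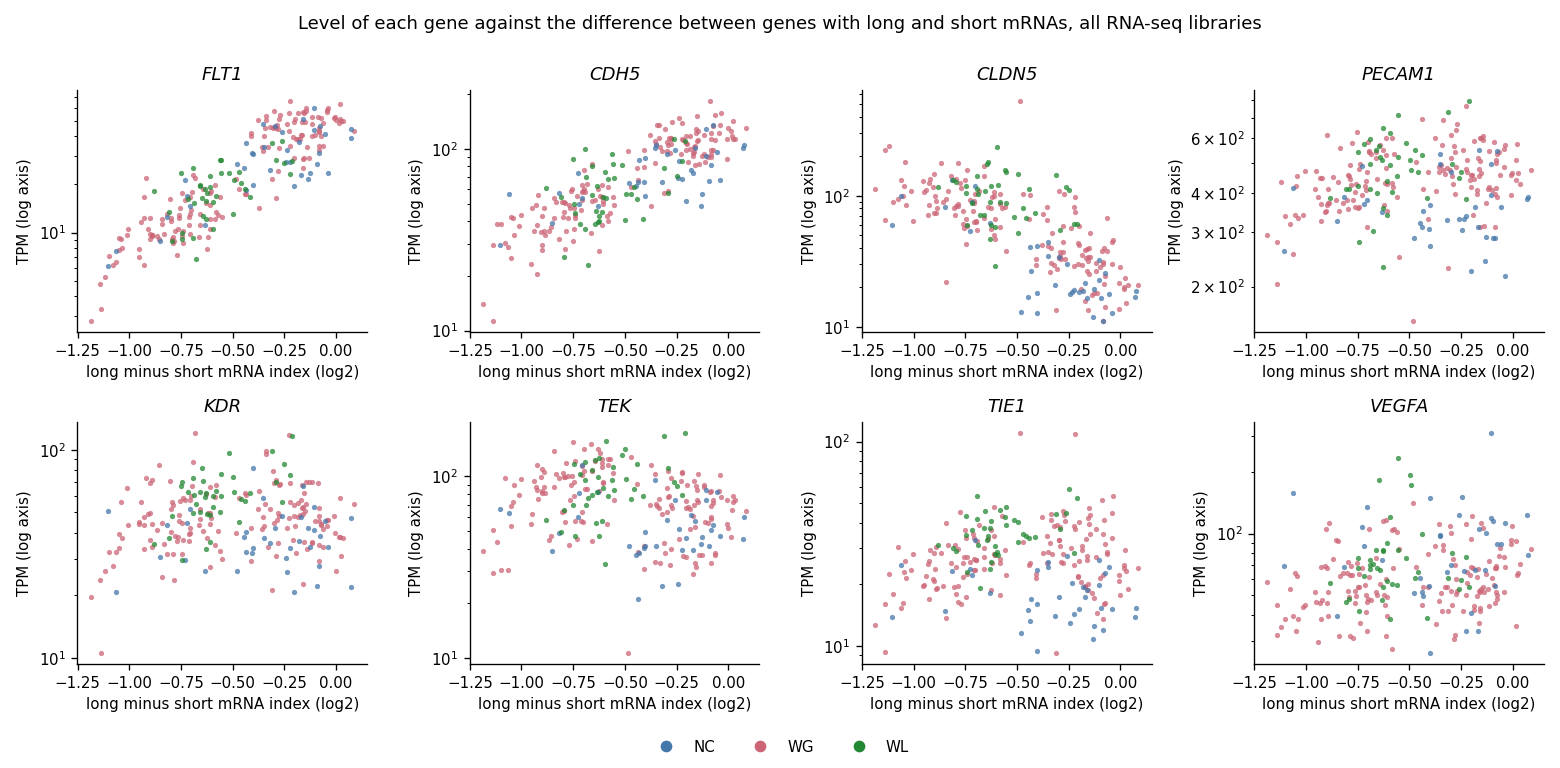
Level of each gene in TPM (log axis) against the long minus short mRNA index (log2) of the library, for all libraries coloured by diet group. FLT1 and CDH5 have higher levels in libraries with a higher index and CLDN5 lower ones, while the mean of KDR differs little between libraries below and above -0.5 (48.3 and 49.6 TPM).

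To ask how the endothelial genes differed after weight gain, NC and WG were compared within each depot. CLDN5, TEK and TIE1 rose and VEGFA fell in GOM, CLDN5 rose and VEGFA fell in RAD, VEGFA alone fell in MAD, and no gene passed the test in ULB, where only 5 NC libraries were compared. A gene was called where the fold change exceeded 1.5 and the adjusted p was below 0.05 (edgeR quasi-likelihood test, Benjamini-Hochberg over all PCGs tested). Of 32 gene-by-depot comparisons, 7 were called, 4 higher and 3 lower in WG. Over all PCGs tested, 14.3% of comparisons were called, 6.37% as higher and 7.89% as lower. Taken by depot (GOM, MAD, RAD, ULB), the shares were 26.7%, 10.7%, 16.7% and 2.38%. PECAM1, CDH5, KDR and FLT1 were called in 0 of 4 depots each, with log2 fold changes between -0.51 and 0.30 (lowest adjusted p 0.0837).

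TIE1 ranged from 9.40 to 20.2 TPM in NC GOM (median 15.3) and from 13.5 to 110.0 TPM in WG GOM (median 28). Most WG libraries lay above the highest NC library, although the ranges overlapped. The log2 fold change of TIE1 was 0.76 (SE 0.21, adjusted p 0.00392 by edgeR), and it was 0.76 (adjusted p 0.0110) with a term for the long minus short mRNA index. In RAD, TIE1 had an adjusted p of 0.00137 at a log2 fold change of 0.47, which is below the fold limit. TEK ranged from 39.6 to 61.2 TPM in NC GOM (median 45.1) and from 10.7 to 127 TPM in WG GOM (median 88.8). Its log2 fold change of 0.60 (SE 0.16, adjusted p 0.00381) lay at the fold limit and became 0.31 (adjusted p 0.121) with the term.

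Of the 8 genes, CLDN5 had the largest fold change and the widest range in WG GOM. NC GOM libraries held 11.9 to 21.6 TPM (median 18.5), and WG GOM libraries 11 to 525 TPM (median 63.4), a range that covered all the NC values. The next highest WG GOM library after the one that stood apart held 141 TPM. Its log2 fold changes were 1.77 in GOM (SE 0.45, adjusted p 0.00179) and 0.91 in RAD (SE 0.31, adjusted p 0.0180). Without replicate 35 of WG GOM the values in GOM were 1.51 for CLDN5 (adjusted p 3.16e-04), 0.66 for TIE1 (adjusted p 1.17e-04) and 0.65 for TEK (adjusted p 4.94e-05). With the term for the index those of CLDN5 were 0.79 (adjusted p 0.131) and 0.58 (adjusted p 0.00984, under the fold limit), and neither was called. When only libraries with at least 88% of TPM on PCGs were used, which left 2 NC GOM libraries, none of CLDN5, TEK and TIE1 was called (GOM log2 fold changes 1.56, 0.59 and 0.78, adjusted p 0.159, 0.127 and 0.0799; RAD CLDN5 0.51, adjusted p 0.478).

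VEGFA fell in all 3 visceral depots. It ranged from 40.8 to 309.6 TPM in NC MAD (median 105) and from 31.5 to 122 TPM in WG MAD (median 68.6), and the ranges overlapped. The log2 fold changes were -0.65 in GOM (SE 0.19, adjusted p 0.00558), -0.86 in MAD (SE 0.17, adjusted p 4.43e-04) and -0.70 in RAD (SE 0.16, adjusted p 7.33e-04), against -0.43 in ULB (SE 0.22, adjusted p 0.355). These 3 calls were kept with the term for the index (-0.61, -0.88 and -0.69) and in libraries with at least 88% of TPM on PCGs (-1.05, -1.01 and -0.74). They depended on the scale. On log2(TPM + 1), without rescaling between libraries, limma gave -0.30, -0.54 and -0.41 (adjusted p 0.175, 0.0238 and 0.0353), none past the fold limit, and all genes tested shifted by a median of 0.13 to 0.23 between NC and WG. On that scale 78.6% of all called genes were higher in WG, against 44.7% by edgeR.

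Other cell types moved with these comparisons. Genes of red cells (5 of 8 listed genes were measured) summed to a median of 618 TPM in NC GOM (121 to 1926) and 2051 TPM in WG GOM, where the highest sum was 9058, and 3 of 4 tested rose in GOM and 3 of 4 in RAD. Of the macrophage genes, 11 of 11 tested rose in MAD and 6 of 11 in RAD, and their sum had a median of 658 TPM in NC MAD (305 to 1139) and 1539 TPM in WG MAD, where the highest sum was 3033. Of the adipocyte genes, 6 of 11 rose in GOM, where their sum was 2554 to 4818 TPM in NC and 1816 to 10528 TPM in WG. The shares of all PCGs called in either direction were 26.7%, 10.7% and 16.7% in GOM, MAD and RAD. No gene of these lists was at 0 throughout either group, and their part in the results was not tested.

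**Figure D3:**
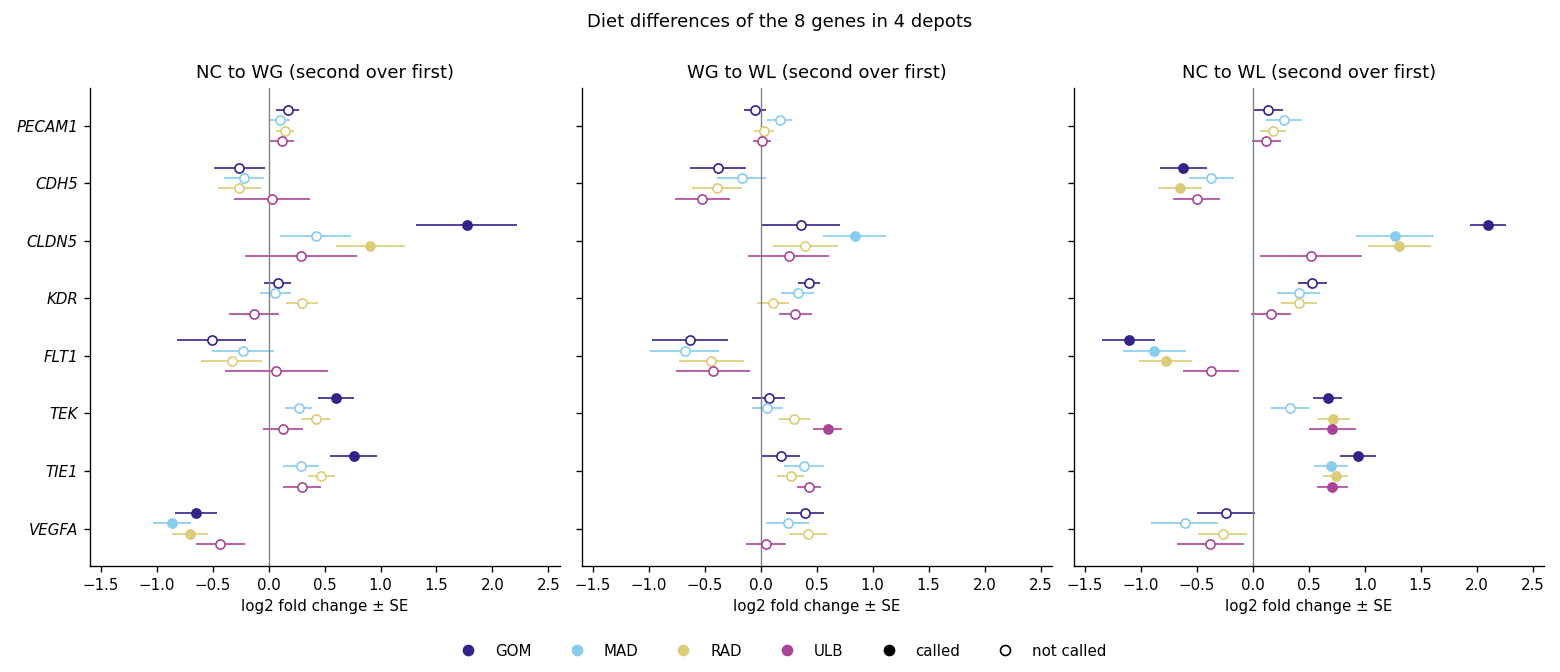
Log2 fold change with its SE (x axis) for the 8 genes in 4 depots, for NC to WG, WG to WL and NC to WL, each as second group over first. Filled points were called, with a fold change over 1.5 and an adjusted p under 0.05. VEGFA is left of 0 in all 4 depots from NC to WG and TIE1 is right of 0 in all 12 comparisons, 5 of them filled.

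The comparison of WG with WL addressed weight loss. Only 2 of 32 gene-by-depot comparisons were called, CLDN5 in MAD and TEK in ULB, both higher in WL, against 9.32% of all comparisons of PCGs (4.08% higher and 5.24% lower). By depot, in the same order, 5.26%, 17.4%, 6.37% and 8.12% of PCGs were called. TEK ranged from 29.2 to 77.8 TPM in WG ULB (median 38.6) and from 33.1 to 111 TPM in WL ULB (median 71.5), so that the ranges overlapped. Its log2 fold change was 0.60 (SE 0.13, adjusted p 7.67e-04), 0.63 (adjusted p 3.97e-05) with the term for the index and 0.58 by DESeq2 and with RLE factors, just under the fold limit. CLDN5 in MAD ranged from 13.5 to 142 TPM in WG (median 43.6) and from 60.0 to 157 TPM in WL (median 113). It rose by a log2 fold change of 0.84 (SE 0.28, adjusted p 0.0201), which was 0.60 (adjusted p 0.0236) with the term and 0.56 (adjusted p 0.515) in libraries with at least 88% of TPM on PCGs. KDR in GOM and TIE1 in ULB had adjusted p of 0.00360 and 0.00532 at log2 fold changes of 0.43 and 0.43, below the fold limit. VEGFA had log2 fold changes of 0.40, 0.24, 0.42 and 0.05 in GOM, MAD, RAD and ULB, with adjusted p from 0.0836 to 0.860. In GOM its value was 0.77 (adjusted p 0.0316) in libraries with at least 88% of TPM on PCGs, which included 4 of the 10 WL libraries.

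Genes of other cell types also moved from WG to WL. In MAD, 10 of 10 lymphocyte genes tested rose (median log2 fold change 2.52), with a summed level of 68.9 to 4410 TPM in WG (median 152) and 152 to 8609 TPM in WL (median 328). There 6 of 9 fibroblast and progenitor genes and 4 of 11 adipocyte genes fell and 1 adipocyte gene rose. In ULB, where TEK rose, 4 of 11 adipocyte genes rose and 1 fell, with sums of 4101 to 9128 TPM in WG and 7823 to 13242 TPM in WL. Of the fibroblast and progenitor genes there, 4 of 9 fell and 1 rose, with sums of 6868 to 22048 TPM in WG and 4919 to 9051 TPM in WL. The shares of all PCGs called in either direction were 17.4% in MAD and 8.12% in ULB. The part of these cell types in the CLDN5 and TEK results was not tested.

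WL and NC, the 2 ends of the series, differed in more of the genes. Of 32 comparisons 15 were called, 10 higher and 5 lower in WL, while 27.8% of all comparisons of PCGs were called (11.6% higher and 16.2% lower). By depot, in the same order, the shares were 36.1%, 33.1%, 26.7% and 14.8%. The receptors TIE1 and TEK and the junction gene CLDN5 rose, FLT1 and CDH5 fell, and PECAM1, KDR and VEGFA were not called in any depot. These values share their libraries with the comparisons above and add no independent support to them.

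TIE1 rose in all 4 depots, with log2 fold changes of 0.94 in GOM (SE 0.16, adjusted p 6.37e-05), 0.70 in MAD (SE 0.15, adjusted p 7.80e-04), 0.74 in RAD (SE 0.11, adjusted p 3.31e-05) and 0.71 in ULB (SE 0.14, adjusted p 0.00310). The 5 NC ULB libraries held 13.3, 14, 14.8, 23.2 and 23.4 TPM of TIE1, all below the lowest of the 10 WL ULB libraries at 28.1 TPM. In GOM the ranges met only at their edges, with 9.40 to 20.2 TPM in NC and 19.2 to 46.4 TPM in WL. All 4 calls were kept with the term for the index (0.84, 0.65, 0.73 and 0.70), whereas in libraries with at least 88% of TPM on PCGs only that in GOM was kept (1.13, 0.55, 0.53 and 0.59). The RAD value then had an adjusted p of 0.0118 and fell under the fold limit, and those in MAD and ULB had adjusted p of 0.0638 and 0.0625.

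TEK rose in GOM, RAD and ULB, by log2 fold changes of 0.67 (SE 0.13, adjusted p 1.49e-04), 0.72 (SE 0.15, adjusted p 8.80e-04) and 0.71 (SE 0.21, adjusted p 0.0255). In GOM, NC libraries held 39.6 to 61.2 TPM of TEK and WL libraries 69.9 to 141 TPM, with no overlap. With the term for the index the GOM value was 0.47 (adjusted p 0.131), and those in RAD and ULB were 0.68 and 0.70 and still called. The 5 NC ULB libraries held 21.3, 24.9, 38.7, 48.7 and 49.5 TPM of TEK, and the call there was lost without replicate 5 (0.62, adjusted p 0.0707) or replicate 9 (0.59, adjusted p 0.0832), the lowest pair. It was also lost in libraries with at least 88% of TPM on PCGs (0.58, adjusted p 0.0575), whereas TEK in MAD was called there (0.61, adjusted p 0.0330).

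CLDN5 rose in the visceral depots, by log2 fold changes of 2.10 in GOM (SE 0.16, adjusted p 5.02e-09), 1.27 in MAD (SE 0.35, adjusted p 0.00558) and 1.31 in RAD (SE 0.28, adjusted p 9.21e-04). In GOM the groups did not overlap, at 11.9 to 21.6 TPM in NC and 58.1 to 146 TPM in WL. With the term for the index the values were 1.82, 0.88 and 1.16, all still called, and in libraries with at least 88% of TPM on PCGs they were 2.33 (adjusted p 0.00232), 0.85 (0.252) and 0.76 (0.132). KDR in GOM also did not overlap in TPM, at 22 to 47.4 in NC and 48.5 to 75.4 in WL, but its log2 fold change of 0.53 (adjusted p 0.00187) was below the fold limit. On log2(TPM + 1) by limma KDR was called in GOM, MAD and RAD (0.84, 0.60 and 0.70), on a scale where the median of all genes shifted by 0.20 to 0.29 and 76.3% of called genes were higher in WL, against 41.8% by edgeR.

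FLT1 fell in the visceral depots by 1.11 (SE 0.24, adjusted p 5.04e-04), 0.88 (SE 0.28, adjusted p 0.0143) and 0.78 (SE 0.24, adjusted p 0.0115) on the log2 scale in GOM, MAD and RAD. It ranged from 19.7 to 44 TPM in NC GOM (median 26.9) and from 6.83 to 37.3 TPM in WL GOM (median 16). CDH5 fell by 0.62 in GOM (SE 0.21, adjusted p 0.0186) and by 0.65 in RAD (SE 0.20, adjusted p 0.0137). With the term for the index none of these 5 calls was left, the values being -0.32, -0.13 and -0.33 for FLT1 (adjusted p 0.552, 0.712 and 0.164) and -0.04 and -0.40 for CDH5 (adjusted p 0.951 and 0.108). In GOM the index of NC and WL libraries overlapped little, so there the term cannot separate the index from diet. Red cell genes also differed here, with a sum of 1929 to 11218 TPM in WL GOM, above the whole range of NC GOM (121 to 1926 TPM), and 4 of 4 tested rose in GOM and 3 of 4 in RAD. Of the macrophage genes 9 of 12 rose in MAD and 7 of 12 in RAD, with sums of 867 to 3231 TPM in WL MAD and 1084 to 2412 TPM in WL RAD, and 321 to 1240 TPM in NC RAD. In MAD, 9 of 10 lymphocyte genes rose (median log2 fold change 3.54), with sums of 59.4 to 266 TPM in NC and 152 to 8609 TPM in WL. There 6 of 11 adipocyte genes and 5 of 12 mural cell genes fell, while 2 and 1 rose, and in GOM 5 of 11 adipocyte genes rose and 1 fell. The shares of all PCGs called in either direction were 36.1%, 33.1% and 26.7% in GOM, MAD and RAD. The part of these cell types in these results was not tested.

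Whether the effect of diet was unequal between depots was tested over all libraries in one fit. The fit had no term for the replicate number, so libraries that may come from the same pig were taken as independent. A gene that did not pass is therefore not shown to have equal effects in the depots. For 0 of the 8 genes did the NC-to-WG or the WG-to-WL difference differ between depots (edgeR quasi-likelihood F test on 3 degrees of freedom), while 8.80% and 6.41% of 15068 PCGs passed (8.32% and 11.4% with the term for the index). At an unadjusted p below 0.05 there was 1 gene in each, CLDN5 for NC to WG (p 0.0261, adjusted p 0.135) and TEK for WG to WL (p 0.0384, adjusted p 0.276). By limma on log2(TPM + 1) the count was also 0, with TEK at an unadjusted p of 0.0177. With the term for the index TEK passed for WG to WL (adjusted p 0.0160). A call in one depot and not in another is therefore not shown by this test to be a difference between depots.

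Between depots of the same diet group, TEK was the gene that differed most clearly. Of 144 gene-by-comparison tests 9 were called, 4 higher and 5 lower in the second depot, against 11.3% of tests over all PCGs (4.91% higher and 6.36% lower). In the comparisons with a call, the shares of PCGs called were 17.7%, 19.5% and 25.4% for NC MAD, RAD and ULB over NC GOM and 7.73% for NC ULB over NC MAD. For WG ULB over WG GOM, MAD and RAD they were 17.9%, 14.4% and 9.27%. In WG, TEK was lower in the subcutaneous ULB than in each visceral depot. WG ULB libraries held 29.2 to 77.8 TPM of TEK (median 38.6), WG GOM 10.7 to 127 (median 88.8), WG MAD 43 to 155 (median 91.5) and WG RAD 41.4 to 142 (median 72.3). The log2 fold changes of ULB were -0.92 over GOM (SE 0.09, adjusted p 2.43e-14), -1.11 over MAD (SE 0.08, adjusted p 4.60e-19) and -0.84 over RAD (SE 0.09, adjusted p 1.05e-12), and all 3 were kept with the term for the index and in libraries with at least 88% of TPM on PCGs. Genes of the mesothelium, which covers visceral fat (5 of 10 listed genes were measured), summed to 57.2 to 728 TPM in WG GOM (median 182) and 1.24 to 132 TPM in WG ULB (median 12.2). In WG MAD and WG RAD the medians of this sum were 15.4 and 11.3 TPM. The part of these genes in the differences between depots was not tested. In NC, ULB was lower than MAD (-0.95, SE 0.20, adjusted p 0.00546), and its values over GOM and RAD were -0.47 and -0.55 (adjusted p 0.0493 and 0.159). In WL the values over GOM, MAD and RAD were -0.43, -0.58 and -0.55 (adjusted p 0.0400, 0.0335 and 0.0363), all within the fold limit.

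CLDN5 was higher outside GOM in NC, by log2 fold changes of 1.02 in MAD (adjusted p 0.0358), 0.95 in RAD (adjusted p 0.0118) and 1.76 in ULB (adjusted p 3.25e-04), and higher in WG ULB than in WG MAD (0.60, adjusted p 0.0272). The 5 NC ULB libraries held 21, 40.3, 41.4, 81.9 and 132 TPM of CLDN5, and only the lowest lay within the NC GOM range of 11.9 to 21.6 TPM. With the term for the index the 4 values were 0.20, 0.25, 0.41 and 0.21, and none was called. With the replicate number as a block, where the numbers paired the libraries, the difference of WG ULB over WG MAD was 0.38 (adjusted p 0.00788), under the fold limit. FLT1 was lower in NC ULB than in NC GOM (-0.72, SE 0.26, adjusted p 0.0418), a value of -0.92 (adjusted p 0.159) with the block. It was 0.08 (adjusted p 0.916) with the term for the index, and not called without replicate 2 (-0.54, adjusted p 0.108) or replicate 7 (-0.59, adjusted p 0.123), the NC ULB libraries with the lowest FLT1. PECAM1, CDH5, KDR, TIE1 and VEGFA were called in 0 of 18 comparisons each, with log2 fold changes between -0.65 and 0.55, of which the lowest adjusted p was 2.73e-07, for KDR at a difference within the fold limit.

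The other genes of the pathway were counted in the same fits. Of 14 further VEGF and angiopoietin pathway genes, 4 of 56 tests were higher and 3 lower from NC to WG. From WG to WL 10 of 56 were higher and 1 lower, and from NC to WL 10 were higher and 2 lower. Over all PCGs the shares were 6.37% higher and 7.89% lower from NC to WG and 4.08% and 5.24% from WG to WL. From NC to WL they were 11.6% and 16.2%. ANGPT4, an angiopoietin that binds TEK, rose at both steps in the visceral depots, by log2 fold changes of 0.99, 0.82 and 1.37 from NC to WG and of 1.35, 2.04 and 2.30 from WG to WL in GOM, MAD and RAD. FLT4, the receptor for the lymphatic growth factors VEGFC and VEGFD, rose from WG to WL in MAD (1.22, adjusted p 9.13e-06) and RAD (1.21, adjusted p 4.06e-04). VEGFD fell from NC to WG in ULB by 1.20 on the log2 scale (adjusted p 9.06e-04). Of 10 genes of hypoxia-inducible factors and their regulators, 1 of 38 tests was higher and 4 were lower from NC to WG, among them PFKFB3 in RAD (-0.67) and EGLN3 in MAD (-0.90). From WG to WL 3 of 40 were higher and 0 lower, among them the vasodilator peptide gene ADM (0.93 in MAD and 0.99 in RAD).

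Of 23 further endothelial genes, 7 of 92 tests were higher and 0 lower from NC to WG, and 1 higher and 1 lower of 92 from WG to WL. From NC to WL 16 of 91 were higher and 7 lower. For these and the lists below, the shares over all PCGs were 6.37% higher and 7.89% lower from NC to WG. They were 4.08% and 5.24% from WG to WL and 11.6% and 16.2% from NC to WL. From NC to WG in GOM the secreted factor EGFL7 rose by 1.38 (adjusted p 0.00261) and the surface receptor CD93 by 1.08 (adjusted p 8.49e-06). From NC to WL ENG, a co-receptor for TGF-beta, fell by 1.22, 0.92 and 1.34 on the log2 scale in GOM, MAD and RAD, and these 3 calls were lost with the term for the long minus short mRNA index (-0.58, -0.07 and -0.83, adjusted p 0.380, 0.914 and 0.111). For EGFL7 and CD93 in GOM the values with the term were 1.24 and 0.99, both still called. Capillary genes gave 5 higher and 0 lower of 36 from NC to WG, and 6 higher and 4 lower from WG to WL. The 4 lower were LPL, the lipase that fat cells send to the capillary wall (-1.17, -1.24, -0.91 and -0.75 in GOM, MAD, RAD and ULB). GPIHBP1, which holds LPL on the capillary surface, rose in MAD, RAD and ULB (0.87, 0.89 and 0.88). These values of LPL and GPIHBP1, and those given above for ANGPT4, FLT4, VEGFD, PFKFB3, EGLN3 and ADM, stayed called with the term. Arterial genes gave 5 higher of 32 from NC to WG and 4 from WG to WL with 0 lower in both, and venous genes 7 higher and 1 lower of 20 and then 1 higher and 0 lower. Lymphatic genes were lower in the second depot in 62 and higher in 9 of 125 tests between depots, against 6.36% and 4.91% over all PCGs. The medians of the further endothelial genes in GOM, MAD, RAD and ULB were 0.21, 0.09, 0.15 and 0.11 (log2 fold change) from NC to WG, where those of all genes were -0.01 to 0.01. From WG to WL they were -0.12, 0.03, 0.03 and 0.09, and the medians of the further VEGF and angiopoietin genes were 0.05, 0.12, 0.11 and 0.17, where those of all genes were -0.04 to -0.01.

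Within groups, the members moved together to different degrees. After group means were removed, the median Pearson r of log2(TPM + 1) over the 21 pairs of the 7 endothelial genes was 0.34 over all libraries, and it was 0.47 among the 114 libraries below -0.5 on the long minus short mRNA index and 0.33 among the 122 above it. CDH5 and FLT1 were the closest pair in both sets (0.74 and 0.83), and CLDN5 and FLT1 the least alike (-0.17 and -0.12). Over all libraries, which span both sets, these pairs had r of 0.92 and -0.63. The median r of VEGFA with the 7 endothelial genes was 0.31 and 0.20. The 10 genes most like the mean of the 7 endothelial genes were led by ESAM (r 0.80), a junction molecule of endothelial cells, MMRN2 (0.78), an endothelial matrix protein, and LAMB2 (0.78), a laminin chain of basement membranes, over all libraries. The 10 most like VEGFA were led by SAFB2 (0.57), PLPP3 (0.55) and ADAMTS4 (0.54) and included PFKFB3 (0.51). When only libraries with at least 88% of TPM on PCGs were used, 2 and 5 of these 10 genes stayed among the 10 most alike. The libraries share depth and in part pigs, so these values carry no test.

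The deposited A-B index places each 20-kb bin in the active compartment A when positive and in the inactive compartment B when negative. In 240 Hi-C libraries the bin with the start of the gene was positive in every library for CDH5, PECAM1, CLDN5, VWF, TIE1, VEGFA and VEGFB, in 239 for FLT1 and TEK, and in 169 for KDR. VEGFB had the highest group means (4.97 to 6.75), above at least 97.3% of all bins. The KDR bin (chromosome 8, 41840001-41860000) was near 0 and followed the depot. Its mean was 1.00 ± 0.346 (SD, n = 46) in WG GOM, 0.542 ± 0.464 (n = 37) in WG MAD, 0.106 ± 0.658 (n = 40) in WG RAD and -0.381 ± 0.426 (n = 39) in WG ULB. It was positive in 46 of 46 WG GOM libraries and in 8 of 39 WG ULB libraries. In NC the means were 0.989, 0.375, 0.225 and -0.50, and in WL 1.06, 0.829, 0.517 and -0.0323, in the same order of depots. Of 18 comparisons between depots, 11 were called for KDR (limma over 113298 bins, adjusted p below 0.05), all lower outside GOM or further from it in the order GOM, MAD, RAD and ULB, while 29.2% of all bin comparisons between depots were called. WG ULB lay below WG GOM by 1.39 (SE 0.08, adjusted p 3.84e-26), WL ULB below WL GOM by 1.10 (SE 0.18, adjusted p 8.55e-05) and NC ULB below NC GOM by 1.49 (SE 0.30, adjusted p 0.00227), and all 11 calls were also made after quantile normalization of the index. The expression of KDR in ULB over GOM had log2 fold changes of 0.28, 0.08 and -0.08 in NC, WG and WL (adjusted p 0.306, 0.466 and 0.667), so no difference in expression was detected there. In WG RAD over WG GOM, where the bin was lower by 0.90 (adjusted p 3.98e-11), KDR expression went the other way, with a log2 fold change of 0.49 (SE 0.08, adjusted p 2.73e-07) that was within the fold limit.

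**Figure D4:**
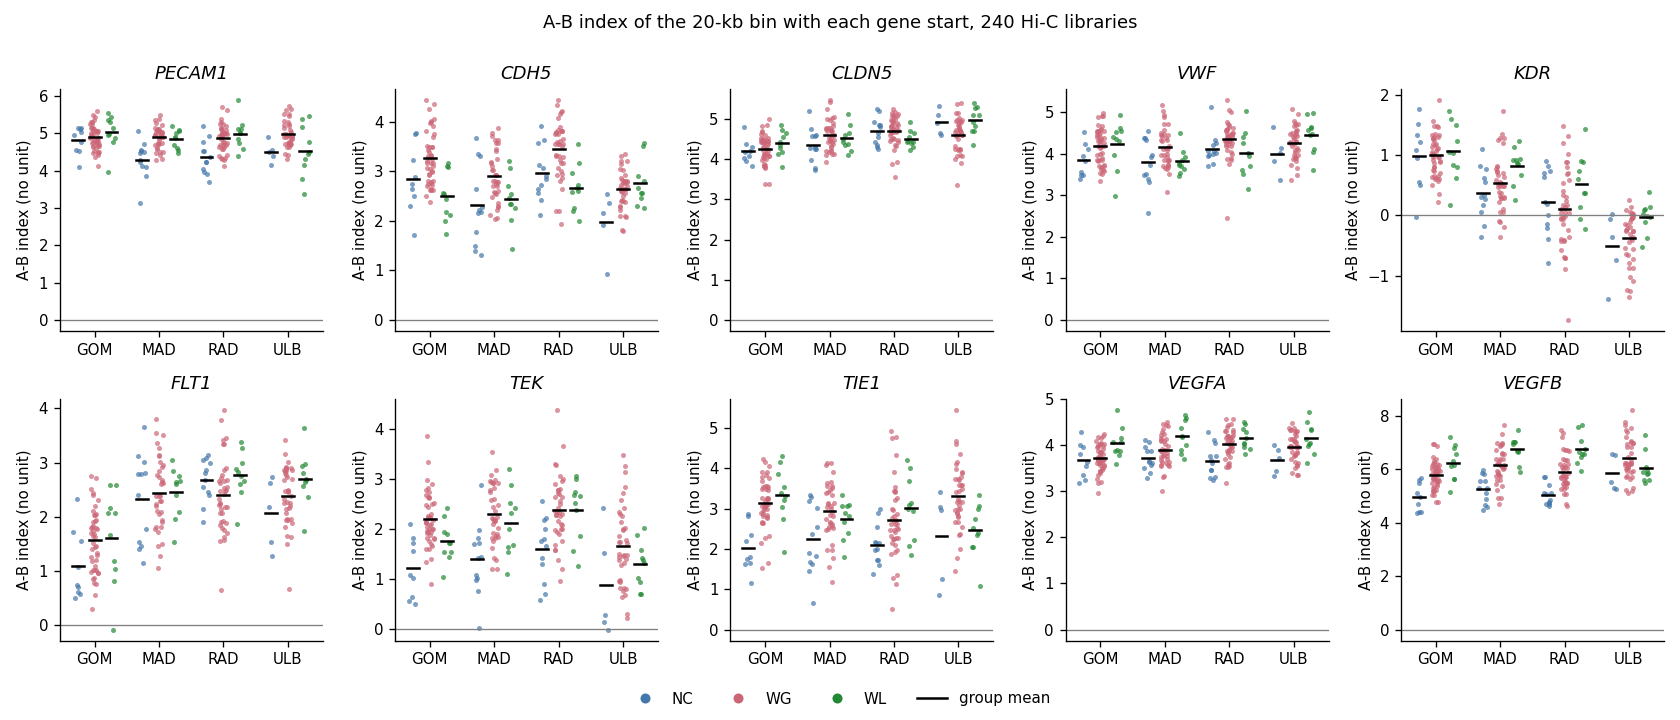
A-B index (no unit) of the 20-kb bin with the start of each of the 10 genes in 240 Hi-C libraries, by depot and diet group, with lines at group means and at 0. The KDR bin goes from positive in all 46 WG GOM libraries to negative in most WG ULB libraries (positive in 8 of 39), while the bins of PECAM1, CLDN5 and VEGFB stay well above 0.

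The bin of FLT1 went the other way. It was higher in MAD, RAD and ULB than in GOM in all 3 diet groups, 9 calls of 18 with and without quantile normalization. In NC, the GOM mean was 1.09 ± 0.638 (SD, n = 9) and the RAD mean 2.67 ± 0.393 (n = 12), a difference of 1.58 (SE 0.22, adjusted p 1.01e-05). FLT1 expression in RAD over GOM in NC was 0.07 on the log2 scale (adjusted p 0.862). The TEK bin was lower in WG ULB than in WG GOM, MAD and RAD, by 0.53, 0.64 and 0.72 (adjusted p 8.48e-04, 4.47e-04 and 1.09e-04). TEK expression was lower in the same 3 comparisons. In WL the TEK bin was lower in ULB than in MAD and RAD, by 0.83 and 1.07 (adjusted p 0.0216 and 0.00723). These were all 5 of its lower calls between depots, and 1 call was higher. TEK expression was also lower in NC ULB than in NC MAD, where the bin was not called. In all, 52 of 180 tests of the 10 bins between depots were called, a share close to the background of 29.2%, and 48 were called with both scalings (30.7% of all bin comparisons after quantile normalization).

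From NC to WG, 13 of 40 tests were called, all higher in WG, against 15.9% of all bins. The deposited index itself shifted between these groups, by a median of 0.05 to 0.25 over all bins, with 86.0% of called bins higher in WG. After quantile normalization, where 54.3% were higher and 10.6% of bins were called, 7 of 40 were called and 5 of the 13 were kept. These 5 were TEK in GOM (0.97), MAD (0.90) and RAD (0.79), TIE1 in GOM (1.12) and VEGFB in GOM (0.81), with adjusted p of 7.32e-04, 9.41e-04, 0.00509, 3.83e-04 and 0.00260. After quantile normalization their differences were 0.78, 0.68, 0.59, 0.90 and 0.63 in the same order. From WG to WL 6 were called against 18.4% of bins (9 after quantile normalization, against 11.4%), and 5 with both scalings. CDH5 fell by 0.77 in GOM and by 0.77 in RAD (adjusted p 0.00294 and 0.00497), TIE1 fell by 0.86 and PECAM1 by 0.45 in ULB (adjusted p 0.0102 and 0.0191), and VEGFB rose by 0.85 in RAD (adjusted p 0.00675). The quantile-normalized differences were -0.96, -0.90, -1.06, -0.60 and 0.86 in the same order. From NC to WL 11 were called against 21.5% (7 against 15.2% after quantile normalization), and those called with both scalings were VEGFB in GOM (1.29), MAD (1.49) and RAD (1.70) and TIE1 in GOM (1.32). Their quantile-normalized differences were 0.85, 1.22, 1.34 and 0.88. TIE1 expression rose in ULB from NC to WL and its bin there was not called, so that, of calls made with both scalings, those of the TIE1 bin and of TIE1 expression met only in GOM.

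H3K27ac, a mark of active enhancers and promoters, was deposited as 18 ranked tables of stitched regions, pooled over samples and so without replicates. A region lay within 10 kb of each gene in 18 of 18 tables for 9 of the 10 genes and in 17 for VEGFA, compared with 40.4% of 18722 autosomal PCGs that had a region in all tables. The PECAM1 region was marked as a super-enhancer (the top of the ranked signal) in 18 of 18 tables, against 0.956% of PCGs. VEGFB was marked in 17 tables, VEGFA in 11, CDH5 in 9, VWF in 5, KDR and TEK in 4, FLT1 and TIE1 in 2 and CLDN5 in 1, and 13.2% of PCGs were marked in at least 9 tables and 42.1% in at least 1. Longer genes have more room for an overlap, and the median length of these PCGs was 20737 bases, against 139312 for VWF, 176398 for FLT1 and 893 for CLDN5. The median rank of the best region was within the top 0.445% of its table for PECAM1, 1.49% for VEGFB, 2.58% for VEGFA and 4.12% for CDH5, and within 39% for KDR. For KDR the mark was found in 4 of the 5 GOM tables and in 0 of the 13 tables of the other depots, GOM being the depot with the highest A-B index at KDR. This was noticed after the values were seen and carries no test. TEK was marked in 4 tables, all of WG and WL visceral depots, and in 0 ULB tables. CLDN5, KDR, FLT1 and TIE1 were likewise marked in 0 ULB tables, and these marks carry no test. Stitched regions can be long and may hold other genes, the PECAM1 region in NC GOM covering chromosome 12 from 14629200 to 14739599.

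**Figure D5:**
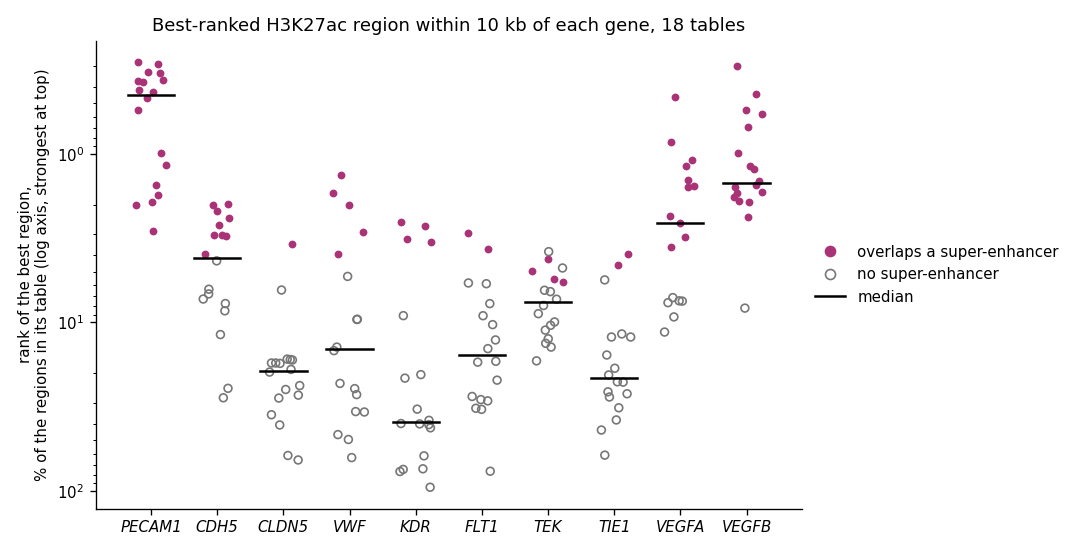
Rank of the strongest H3K27ac region within 10 kb of each gene, as a percent of the regions in its table (log axis, strongest at the top), in 18 pooled tables. Filled points are genes with a super-enhancer in that table and lines are medians. PECAM1 has the strongest ranks (median 0.445%) and KDR the weakest median (39%).

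A region covered the start of the gene in 18 of 18 tables for PECAM1, CDH5, TEK and VEGFB, in 17 for CLDN5 and VEGFA and in 14 for KDR, but in only 8 for TIE1 and 6 for VWF and FLT1. The 250 bases before the RefSeq start (Sscrofa11.1) are shown for PECAM1 and TEK, whose starts were covered in every table, and for KDR, whose chromatin differed between depots. They read 5′ to 3′ on the strand of the gene, and capitals mark the letters GGAA on either strand (TTCC on the printed one), the core of the sites of ETS factors that are known regulators of endothelial genes.
PECAM1 (chr12:14667393-14667642, plus strand): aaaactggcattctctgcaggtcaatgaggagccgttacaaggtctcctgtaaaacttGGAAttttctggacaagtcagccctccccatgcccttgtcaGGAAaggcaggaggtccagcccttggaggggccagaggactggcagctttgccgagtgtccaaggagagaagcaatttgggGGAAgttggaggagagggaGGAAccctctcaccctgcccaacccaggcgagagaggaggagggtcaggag
TEK (chr1:196052295-196052544, minus strand): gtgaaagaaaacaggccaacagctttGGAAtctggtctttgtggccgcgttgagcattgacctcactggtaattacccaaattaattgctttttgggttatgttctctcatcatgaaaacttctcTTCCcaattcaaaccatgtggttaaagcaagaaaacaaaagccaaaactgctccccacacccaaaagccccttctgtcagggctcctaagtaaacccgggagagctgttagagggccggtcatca
KDR (chr8:41856380-41856629, minus strand): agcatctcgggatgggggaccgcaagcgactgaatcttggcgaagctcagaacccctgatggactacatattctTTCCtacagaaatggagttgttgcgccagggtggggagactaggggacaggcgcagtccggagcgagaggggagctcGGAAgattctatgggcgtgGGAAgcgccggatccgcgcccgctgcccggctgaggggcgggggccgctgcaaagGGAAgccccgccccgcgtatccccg
These windows hold 4, 2 and 4 matches to GGAA, whereas 92.7% of 19548 windows of all PCGs hold at least 1, with a median of 3.0. The windows of VWF and VEGFB hold none. The longer ETS motif CCGGAA, which contains GGAA, is in 13.6% of all windows and in none of the 3 shown. The letters ACGTG, the core of the hypoxia response element, are in 18.7% of all windows and, on either strand, in none of the 3 shown. GC content was 56.8% for PECAM1, 45.6% for TEK and 64.8% for KDR, with a median of 57.6% over all windows. A match describes letters only.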

How the data were processed

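Libraries were made by the authors from ribosome-depleted RNA with a stranded kit, and kallisto 0.43.0 was run against the Sscrofa11.1 annotation of Ensembl release 102. The authors deposited TPM values and estimated counts per gene from tximport. The estimated counts as deposited were rounded to whole numbers here. Symbols were taken from the reference gene tables, which named 14821 of 21280 PCGs. A further 9 columns of each expression table, which matched no sample, were not used. Groups came from the sample labels. A gene was tested if it exceeded 0.5 TPM in at least 80% of the libraries of 1 group compared, which gave 13346 to 14440 genes per comparison. Each comparison was fitted with edgeR 4.0.16 (R 4.3.3, TMM factors, quasi-likelihood test) on its 2 groups, with Benjamini-Hochberg adjustment over all genes tested. DESeq2 1.42.0 and limma 3.58.1 on log2(TPM + 1), with a pseudocount of 1, were alternatives, and the term for the long minus short mRNA index was added after the data were seen. On simulated counts for NC GOM to WG GOM (14251 genes), 71% of genes changed by 2-fold and 94% of those changed by 4-fold were recovered, and for NC ULB to WG ULB (13600 genes), with 5 NC libraries, 58% and 91%.

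Hi-C reads were processed by the authors with Juicer and normalized, and the deposited A-B index is a score per 20-kb bin (113298 bins), tested with limma. H3K27ac tables are the authors' ROSE output on stitched SICER regions, pooled over samples, with the deposited signal of each region in H3K27ac and input reads and the rank the authors gave it. The authors had aligned the reads with BWA 0.7.15 and removed duplicates with SAMtools 1.3.1. They were compared by overlap with each gene extended by 10 kb, with no test.

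Replicate numbers are shared between depots, but the labels do not say that a number marks a pig. Same-numbered libraries were compared by the correlation of their deviations from group means. Every pair exceeded 0.1 in 4 of 18 depot comparisons, and for those a block was given beside a result that it changed. They were NC GOM and ULB (4 pairs, median r 0.133), WG MAD and ULB (30 pairs, 0.631), WG RAD and ULB (33 pairs, 0.602) and WL MAD and RAD (10 pairs, 0.412). Same-numbered libraries were also alike in the WG comparisons that missed this rule. The median r was 0.664 for GOM and MAD (35 of 36 pairs above 0.1) and 0.587 for GOM and RAD (37 of 39). It was 0.622 for GOM and ULB (37 of 38) and 0.656 for MAD and RAD (30 of 31). p-values otherwise measure the spread between libraries. The members and gene lists were chosen with earlier results of these data known. The genes named are all the members with a row, at most 4 called genes of each other list per comparison, by size of the fold change, and the 10 genes most like the members. Python 3.11.15 with pandas 2.3.3 was used for the remaining steps. The start window of CDH5 is not reported here.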

Additional observations from a re-analysis of the deposited data

Results flagged for a closer look

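In groups of 4 to 10 samples, the highest or lowest value of a member stood apart from the rest by more than Dixon's 95% critical value in 9 of 108 groups tested. Normally distributed values would give about 1 in 20, but TPM were used without a log, so that rate need not hold for expression. The flagged groups were 8 of 48 for expression, all at the highest value, and 1 of 60 for the A-B index. VEGFA accounted for 5 of these. It reached 194 TPM in replicate 3 of WL GOM (next 90.2), 235 TPM in replicate 3 of WL MAD (next 121), 182 TPM in replicate 3 of WL RAD (next 99.2), 173 TPM in replicate 8 of WL ULB (next 80.4) and 149 TPM in replicate 12 of NC ULB (next 68.4). The high libraries of WL GOM, MAD and RAD carry the same number, although the labels do not say that it marks one pig. KDR was also highest in replicate 12 of NC ULB, at 81.3 TPM (next 43.3). FLT1 reached 37.3 TPM in replicate 4 of WL GOM (next 23.1) and TIE1 58.7 TPM in replicate 6 of WL ULB (next 37.2). The A-B index of the PECAM1 bin was 3.97 in replicate 5 of WL GOM (next 4.78). No explanation was tested for these values.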

How the results depend on the processing

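From NC to WG, 7 calls became 3 in libraries with at least 88% of TPM on PCGs, 4 with a term for libraries below 88%, and 4 with the index term (added after the data were seen). From WG to WL, 2 calls became 1 with DESeq2, with RLE factors and with the term for libraries below 88%. From NC to WL, 15 became 7 in libraries with at least 88%, and the calls of FLT1 and CDH5 and that of TEK in GOM were lost with the index term. Between depots, 9 became 5 with limma on TPM, and the calls of CLDN5 and FLT1 were lost with the index term. The test of unequal diet effects gave 0, and 1 with the index term. FLT1 in NC ULB over NC GOM reversed to 0.08 with that term. The 82 A-B calls became 41 when a difference over 0.75 was required. After quantile normalization 79 calls were made, and these held 62 of the 82, while 20 of the 82 were lost. The 179 tables with a region near a member became 73 for super-enhancers alone. The median pair r of 0.34 over all libraries was 0.34 with a pseudocount of 0.1 and 0.32 in libraries with at least 88%. Leaving out each NC ULB replicate gave 7 calls from NC to WG, 14 to 16 from NC to WL, 8 to 9 between depots, 0 unequal diet effects and 79 to 81 A-B calls. Without replicate 35 of WG GOM or replicate 6 of WG MAD, left out after the data were seen, the counts were 7, 2, 9 and 0 for NC to WG, WG to WL, depots and unequal effects. The replicate block gave 6 depot calls and 74 A-B calls. Where the numbers did not pair the libraries it lost CLDN5 in NC MAD over GOM (0.84, adjusted p 0.0948) and TEK in NC ULB over MAD (-0.85, 0.0527) and gained CLDN5 in NC ULB over MAD (1.38, 0.0466). The cause of these changes was not tested.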

Other observations

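In WG, 26 replicate numbers had a library in all 4 depots. For FLT1 and CDH5, all 4 libraries lay on the same side of their depot's median TPM in 21 of these 26 numbers each, and for the long minus short mRNA index in 23. The number was 15 for TIE1, 13 each for KDR, TEK and CLDN5, 10 for VEGFA and 8 for PECAM1. All 4 libraries lay below -0.5 on the index for 8 of the 26 numbers, all above it for 15 and on both sides for 3. These are values without a test, and the labels do not say whether a number marks a pig.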
